A study of Mus musculus with 43 samples.

Results

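Forkhead genes were followed in full-grown oocytes and morulae of the mouse after loss of parts of the Polycomb system. The members were chosen by gene symbol, as Fox followed by a letter from a to s and a number, whether or not they were expressed. They are 43 of the 35869 symbols in the 3 deposited tables. Polycomb repressive complex 1 (PRC1) ubiquitinates histone H2A, its variant complexes contain PCGF1 or PCGF6, and the product of Kmt2b (MLL2) methylates lysine 4 of histone H3. Per the labels, 2 oocyte libraries of a PRC1 catalytic-dead genotype (PRC1-CD) were set against 2 of PRC1 wild type (PRC1-WT), each made from 10 pooled oocytes freed of the zona pellucida. In the knockout set, 3 libraries of Pcgf1/6/Mll2 triple knockout (TKO) oocytes, 3 of Pcgf1/6 double knockout (DKO) oocytes and 3 of wild type (WT) oocytes were compared. The morulae comprised 10 libraries each of maternal triple knockout (matTKO), maternal double knockout (matDKO) and WT. Strain, age, the Cre driver, the zygotic genotype and whether replicates came from separate animals are not given in the sources used here, so a p-value here reflects the spread among libraries, which may be technical. The second PRC1-CD library carries the tissue label embryo but is a full-grown oocyte by title and stage, and it was kept.

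Forkhead proteins are transcription factors that bind DNA through a conserved winged-helix domain. FOXO members lie downstream of insulin and KIT signalling, where AKT phosphorylation moves them out of the nucleus, and FOXO3 is known for holding mouse primordial follicles dormant. FOXA, FOXC, FOXD, FOXF and FOXQ members pattern tissues of the embryo, and many of their CpG-rich genes are textbook Polycomb targets in embryonic cells. FOXK1 and FOXK2 bind the H2A deubiquitinase BAP1, and FOXM1 drives genes of the G2 and M phases of the cell cycle.

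Oocyte levels are RPKM (reads per length and library size), morula levels are treated as TPM, and the sequencing depth is unknown. Between 10902 and 13086 genes per library reached a value of at least 1, and among them 10 to 17 forkhead genes. The deletions were visible in the RNA. Pcgf1 stood at 10.69 to 13.73 RPKM in TKO and 10.62 to 13.35 in DKO oocytes, against 1076.73 to 1152.80 in WT. Pcgf6 stood at 61.94 to 81.59 RPKM in TKO and 55.05 to 60.26 in DKO, against 147.66 to 158.75 in WT, and Kmt2b at 1.04 to 1.31 in TKO against 4.43 to 5.16 in WT. The catalytic-dead label cannot be checked by RNA level. The 10 oocyte markers summed to at least 7526.87 RPKM in each oocyte library. Libraries correlated with the others of their group at a mean r of 0.984 or above in oocytes. In morulae matDKO replicate 9 and matTKO replicates 8 and 9 stood apart, at a mean r below 0.9.

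Genes were tested where the mean of any group of their table reached 1, and 18 forkhead genes met this in some table, 11 of them in all 3. The other 25 passed in none, among them Foxa1, Foxb1, Foxb2, Foxc2, Foxd1, Foxd2, Foxd3, Foxd4, Foxe1, Foxe3, Foxf1, Foxf2, Foxi1, Foxi2, Foxi3, Foxj1, Foxl1, Foxl2, Foxn1, Foxn4, Foxo4, Foxp3, Foxr2 and Foxs1. Foxi1 was listed at 0 in all 43 libraries. In all, 12 forkhead genes passed the test in at least 1 of the 7 comparisons, each of them in oocytes.

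In WT oocytes of the knockout set 8 genes made up 97.2% of the summed forkhead RPKM. Foxj3, required for spermatogenesis in the mouse, was the highest at 72.45, 76.80 and 76.23 RPKM. Foxr1, whose zebrafish relative is a maternal-effect gene, followed at 49.43, 55.47 and 50.16, and Foxo1 at 34.06, 37.19 and 31.77. No library of one of these genes reached the range of the next. Foxn2 (20.72 to 22.92 RPKM) and Foxn3 (17.89 to 18.94), members of a subfamily of mostly repressive factors, came next. The ranges of Foxm1 (10.96 to 12.30) and Foxo3 (10.82 to 11.88) overlapped, so their order is not resolved, and Foxk2 (6.90 to 8.29) lay below both. The same 8 genes held the first 8 places in PRC1-CD, PRC1-WT, TKO and DKO oocytes. In TKO oocytes Foxo1 took the second place and Foxr1 the third.

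The 3 groups of the knockout set share the same WT libraries, and TKO and DKO stand in several of its comparisons, so their values are given side by side. In TKO against WT, 8 forkhead genes rose and 2 fell of 16 tested, where 51.3% of all 12873 genes passed the test, 31.2% upward and 20.1% downward. In DKO against WT, 4 rose and 1 fell, where 28.8% of all genes passed, 17.5% upward and 11.3% downward. In TKO against DKO, 6 rose and 1 fell, where 48.6% passed, 26.8% upward and 21.8% downward. Including genes below the filter, 14 of 35 forkhead genes above 0 were higher in every TKO than in every WT library, and 2 lower. Of all genes above 0 in these libraries, 24.0% and 14.8% were. In DKO against WT it was 11 and 2 of 33 (20.6% and 13.1%), and in TKO against DKO 6 and 4 of 34 (17.8% and 16.2%). The members' median log2 change was 0.40 in TKO against WT (all genes 0.09), 0.13 in DKO against WT (0.03) and 0.33 in TKO against DKO (0.04). Foxc1, Foxj2, Foxq1, Foxa3 and Foxo6 had WT means under 1 and passed the filter only through the knockouts, which tilts these counts upward. Among the 11 with a WT mean of at least 1, 3 rose and 2 fell in TKO, and 0 rose and 1 fell in DKO. In these bulk oocyte libraries, fewer cells with a transcript and less of it per cell cannot be told apart.

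**Figure D1:**
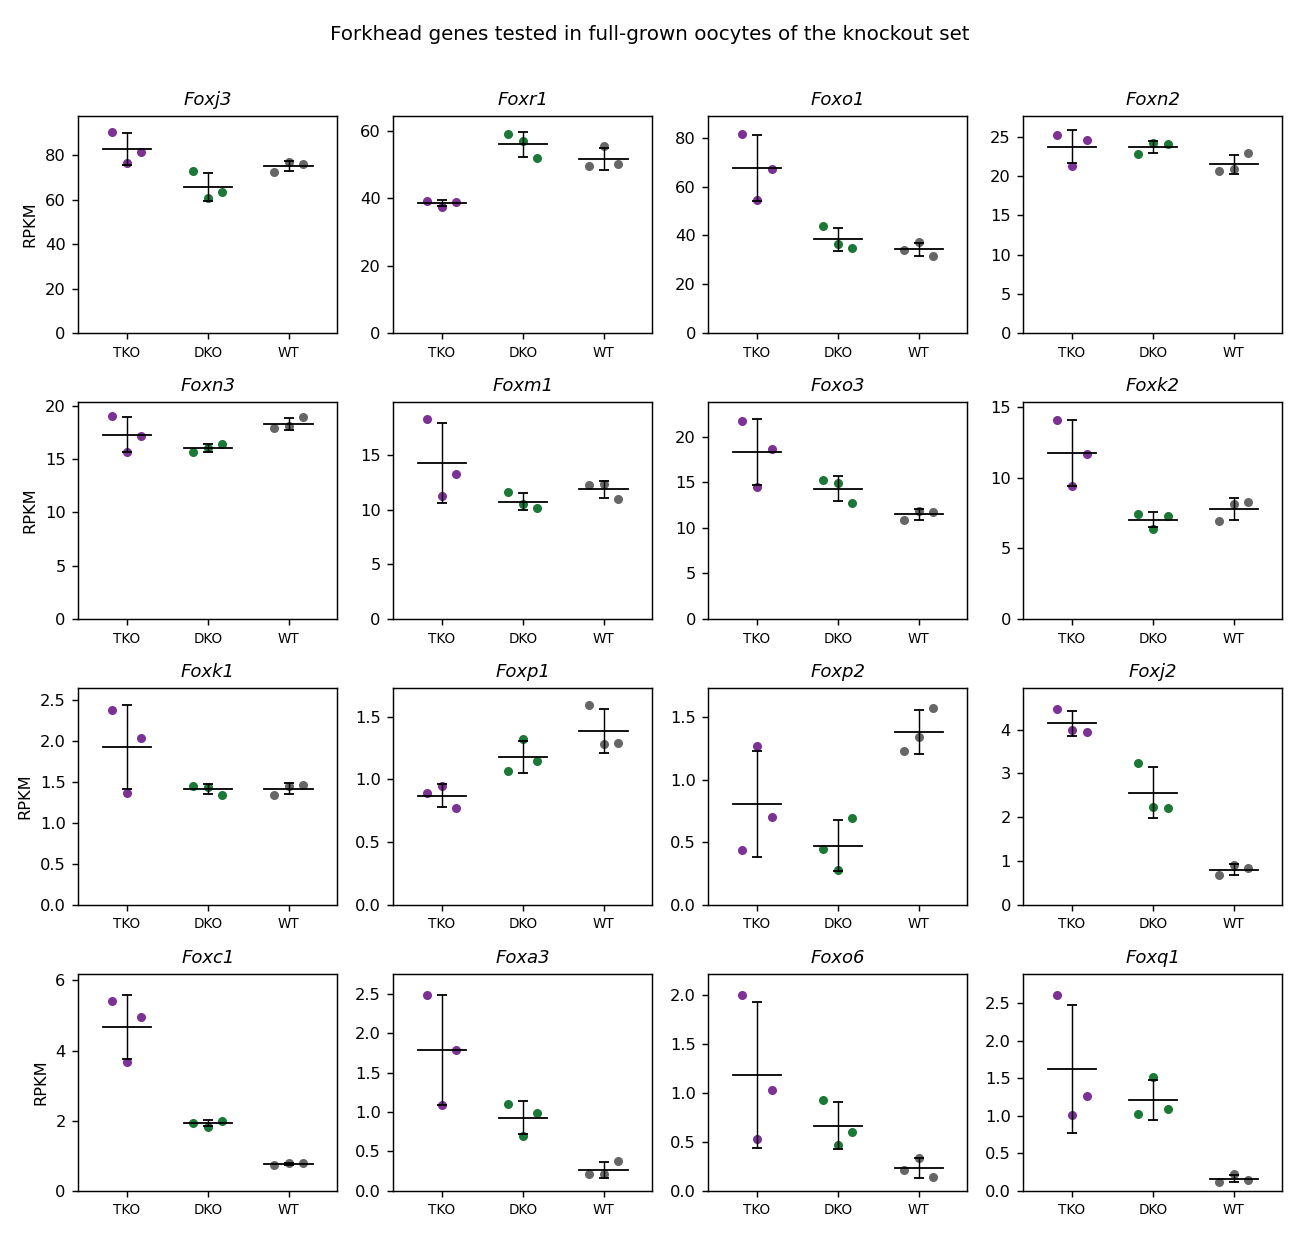
RPKM (vertical axis, from 0) of the 16 forkhead genes tested in the knockout set, in TKO, DKO and WT oocytes, with 1 point per library, a line at the mean and bars of 1 SD (n = 3 each). Foxc1 and Foxj2 step up in DKO and again in TKO, Foxo1 and Foxk2 are high in TKO, and Foxr1 is low in TKO.

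Of the patterning factors, Foxc1 and Foxq1 rose in both knockouts. Foxc1, needed for mesoderm, eye and skull development (chromosome 13, 31806633 to 31812476, plus strand), had 5.42, 3.66 and 4.96 RPKM in TKO, 1.94, 1.83 and 2.0 in DKO, and 0.74, 0.78 and 0.80 in WT. The 3 groups did not overlap. Its log2(RPKM + 1) change was 1.67 ± 0.13 in TKO against WT (SE, adjusted p = 8.01e-06), 0.72 ± 0.13 in DKO against WT (adjusted p = 0.00261) and 0.95 ± 0.13 in TKO against DKO (adjusted p = 0.000297). Foxq1, known for the satin coat of mutant mice, had 2.60, 1.01 and 1.26 RPKM in TKO, 1.02, 1.51 and 1.09 in DKO, and 0.12, 0.22 and 0.15 in WT. Every knockout library lay above every WT library, while TKO and DKO overlapped. The changes against WT were 1.13 ± 0.20 in TKO (adjusted p = 0.00119) and 0.92 ± 0.20 in DKO (adjusted p = 0.00728), and the TKO against DKO difference was 0.21 ± 0.20 (adjusted p = 0.411).

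Foxj2, an activator studied in mouse germ cells, showed the same stepwise order as Foxc1. Its levels were 4.48, 3.99 and 3.95 RPKM in TKO, 3.23, 2.24 and 2.21 in DKO, and 0.67, 0.90 and 0.84 in WT. It rose by 1.51 ± 0.13 in TKO against WT (adjusted p = 1.67e-05), by 0.97 ± 0.13 in DKO against WT (adjusted p = 0.00054) and by 0.54 ± 0.13 in TKO against DKO (adjusted p = 0.00738). Among 36 forkhead genes above 0, only Foxc1 and Foxj2 had every TKO library above every DKO library and every DKO above every WT library. This order was found in 2.62% of all genes above 0. Foxa3, a pioneer factor of liver and gut, had 2.48, 1.09 and 1.79 RPKM in TKO, 1.10, 0.70 and 0.99 in DKO, and 0.21, 0.21 and 0.38 in WT. It rose by 1.11 ± 0.18 in TKO (adjusted p = 0.000702) and by 0.61 ± 0.18 in DKO (adjusted p = 0.0309). The DKO call of Foxa3 was lost when any WT library, or DKO replicate 1 or 3, was left out (adjusted p 0.0559 to 0.0899). Its TKO against DKO change of 0.51 ± 0.18 (adjusted p = 0.041), with overlapping groups, was lost without DKO replicate 2 or 3 or TKO replicate 1 or 3 (adjusted p 0.0755 to 0.134).

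The promoters of Foxc1, Foxj2 and Foxa3, which rose in both knockouts, and of Foxr1, which fell in TKO, are shown because they differ in CpG content. Each is the window from 250 bases before to 50 bases after the start site, from RefSeq on GRCm38.p6, written 5′ to 3′ along the gene's strand with CG dinucleotides in capitals. The windows are chr13:31806396-31806695 (plus) for Foxc1, chr6:122819934-122820233 (plus) for Foxj2, chr7:19023490-19023789 (minus) for Foxa3 and chr9:44440819-44441118 (minus) for Foxr1.
Foxc1: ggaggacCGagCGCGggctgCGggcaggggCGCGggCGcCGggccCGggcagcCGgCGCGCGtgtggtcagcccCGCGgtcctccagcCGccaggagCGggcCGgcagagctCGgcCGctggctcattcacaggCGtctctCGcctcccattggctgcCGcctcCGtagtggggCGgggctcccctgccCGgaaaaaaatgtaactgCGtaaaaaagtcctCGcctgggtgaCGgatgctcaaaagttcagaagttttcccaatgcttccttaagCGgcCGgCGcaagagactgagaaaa
Foxj2: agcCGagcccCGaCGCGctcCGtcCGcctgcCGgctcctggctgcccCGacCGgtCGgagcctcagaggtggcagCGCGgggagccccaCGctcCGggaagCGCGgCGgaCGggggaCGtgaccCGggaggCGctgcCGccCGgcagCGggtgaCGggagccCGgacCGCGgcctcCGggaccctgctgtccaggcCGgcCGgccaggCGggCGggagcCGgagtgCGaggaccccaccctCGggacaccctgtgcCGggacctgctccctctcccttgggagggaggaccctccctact
Foxa3: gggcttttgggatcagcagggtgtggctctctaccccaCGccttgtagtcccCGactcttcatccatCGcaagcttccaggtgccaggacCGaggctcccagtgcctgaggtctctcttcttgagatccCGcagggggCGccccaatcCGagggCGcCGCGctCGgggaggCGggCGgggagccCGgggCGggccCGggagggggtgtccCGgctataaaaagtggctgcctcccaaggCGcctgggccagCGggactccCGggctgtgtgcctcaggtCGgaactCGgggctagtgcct
Foxr1: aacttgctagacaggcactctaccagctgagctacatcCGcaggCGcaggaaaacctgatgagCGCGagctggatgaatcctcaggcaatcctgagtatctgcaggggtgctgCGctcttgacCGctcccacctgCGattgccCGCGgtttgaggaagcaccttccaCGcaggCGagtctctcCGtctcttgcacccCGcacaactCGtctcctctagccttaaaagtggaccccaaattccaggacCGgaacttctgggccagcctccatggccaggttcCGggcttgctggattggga
The windows hold 32, 37, 22 and 16 CG dinucleotides in that order. Foxp1, which also fell in TKO, is not shown, and its windows hold 13, 5 and 44. Whether CpG content goes with the direction of change was not tested.

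RefSeq windows matched 27 of the 43 members with 30 start sites. Their median was 22 CG dinucleotides (range 3 to 59), and 76.9% of all 32851 windows held fewer than 22, with a median of 7. The 11 windows of 9 genes that passed a test had a median of 32 (range 5 to 59), and the 19 windows of the other 18 genes a median of 12 (range 3 to 33). Of those 18 genes only Foxn3 and Foxp4 reached the filter in any table. The others were too low to test, so the windows do not set responding against unresponsive genes. These are descriptions of the members and were not tested. Of 3 motifs searched on both strands, TCCCGC lay in 9 forkhead windows and 20% of all windows, CACGTG in 1 and 7.15%, and the forkhead motif TGTTTAC in 1 and 3.65%.

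Of the 4 FOXO genes, Foxo1, Foxo3 and Foxo6 rose in TKO against WT and did not pass in DKO, and Foxo1 alone passed in TKO against DKO. Foxo1 had 81.52, 54.56 and 67.40 RPKM in TKO, 43.75, 36.36 and 35.00 in DKO, and 34.06, 37.19 and 31.77 in WT. Every TKO library exceeded every DKO and WT library, while DKO and WT overlapped. It rose by 0.95 ± 0.14 in TKO against WT (adjusted p = 0.000379) and by 0.79 ± 0.14 against DKO (adjusted p = 0.0012), and the DKO against WT difference was 0.15 ± 0.14 (adjusted p = 0.445). Foxo3 had 21.72, 14.48 and 18.66 RPKM in TKO, 15.27, 14.87 and 12.77 in DKO, and 10.82, 11.88 and 11.71 in WT. Its TKO and DKO libraries all lay above WT, and the change passed in TKO (0.61 ± 0.13, adjusted p = 0.00377) but not in DKO (0.29 ± 0.13, adjusted p = 0.13, or 0.0339 with DKO and WT alone in the fit). Foxo3 in TKO against DKO, with overlapping groups, was 0.32 ± 0.13 (adjusted p = 0.0715), and it passed without TKO replicate 2 (adjusted p = 0.00566). Foxo6, a brain-enriched FOXO gene, had 2.0, 0.53 and 1.03 RPKM in TKO, 0.93, 0.47 and 0.60 in DKO, and 0.21, 0.34 and 0.14 in WT, and rose in TKO by 0.78 ± 0.22 (adjusted p = 0.0143). Without TKO replicate 1, the highest library, it fell below the filter and was not tested. Its DKO change was 0.43 ± 0.22 (adjusted p = 0.171), and TKO and DKO differed by 0.35 ± 0.22 (adjusted p = 0.218). Foxo4 was below the filter and stayed at or below 0.08 RPKM in all 13 oocyte libraries.

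Among the other abundant genes, Foxk2 and Foxj3 were high in TKO. Foxk2 had 14.11, 9.44 and 11.70 RPKM in TKO, 7.41, 6.40 and 7.28 in DKO, and 6.90, 8.12 and 8.29 in WT. No TKO library overlapped the other groups, and the rise was 0.53 ± 0.14 against WT (adjusted p = 0.00928) and 0.65 ± 0.14 against DKO (adjusted p = 0.00324). Foxj3, at 90.58, 76.35 and 81.46 RPKM in TKO against 72.91, 60.78 and 63.27 in DKO, rose by 0.33 ± 0.09 (adjusted p = 0.01). Its TKO and WT libraries overlapped, with a difference of 0.14 ± 0.09 (adjusted p = 0.216).

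Foxr1 fell. It had 39.29, 37.45 and 38.81 RPKM in TKO, 58.96, 57.09 and 51.88 in DKO, and 49.43, 55.47 and 50.16 in WT, so TKO lay below both other groups. The log2 changes were -0.41 ± 0.07 against WT (adjusted p = 0.00123) and -0.53 ± 0.07 against DKO (adjusted p = 0.000337). Foxp1, which encodes a repressor needed for heart, lung and B cell development, had 0.89, 0.95 and 0.77 RPKM in TKO, 1.07, 1.32 and 1.15 in DKO, and 1.59, 1.28 and 1.29 in WT. It was lower in TKO than WT by -0.35 ± 0.11 (adjusted p = 0.0245), a call lost without WT replicate 1 (adjusted p = 0.0968) or TKO replicate 3 (adjusted p = 0.075). Foxp2, known for its role in vocal learning circuits, had 0.44, 1.27 and 0.70 RPKM in TKO, 0.45, 0.28 and 0.69 in DKO, and 1.23, 1.34 and 1.57 in WT. Every DKO library lay below WT, and the log2 change was -0.70 ± 0.18 (adjusted p = 0.0149), lost without WT replicate 3 (adjusted p = 0.0603) or DKO replicate 2 (adjusted p = 0.0566). In TKO, where replicate 2 reached the WT range, the Foxp2 change was -0.42 ± 0.18 (adjusted p = 0.068), and -0.60 without that library (adjusted p = 0.0103).

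Foxn2, Foxn3, Foxm1 and Foxk1 passed in no oocyte comparison. Foxm1 had 18.30, 11.27 and 13.24 RPKM in TKO, 10.10 to 11.62 in DKO and 10.96 to 12.30 in WT. Foxk1 had 2.38, 1.37 and 2.04 RPKM in TKO, 1.34 to 1.45 in DKO and 1.34 to 1.46 in WT. In both, TKO replicate 1 was the highest and TKO replicate 2 lay within the WT range. Over the 16 tested genes, TKO replicate 1 was the highest TKO library in 14 and replicate 2 the lowest in 13. Without replicate 2, 11 forkhead genes rose and 3 fell in TKO against WT, adding Foxk1, Foxm1, Foxn2 and Foxp2, where 30.9% of all genes rose and 20.3% fell. Against DKO 10 rose and 1 fell without it, where 27.4% and 22.6% of all genes did.

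**Figure D2:**
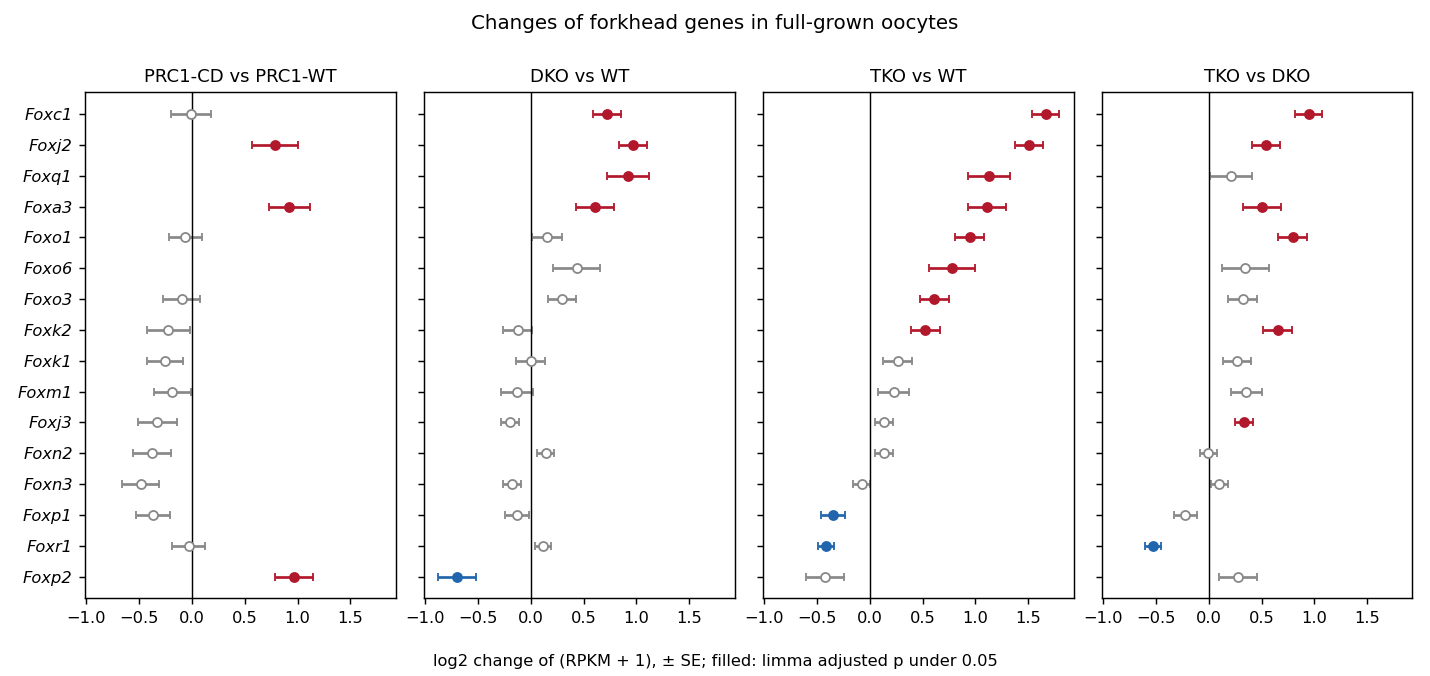
Log2 change of RPKM + 1 with its SE (horizontal axis) for each forkhead gene tested in oocytes, with 1 panel per comparison and filled points where the limma adjusted p was under 0.05. Foxc1 is at 1.67 in TKO against WT and at -0.01 in PRC1-CD against PRC1-WT, while Foxp2 is above 0 in PRC1-CD and below 0 in DKO.

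In PRC1-CD oocytes, 3 forkhead genes rose and 0 fell of 14 tested, where 22.9% of all 13376 genes passed the test, 17.3% upward and 5.61% downward. The members' median log2 change was -0.14 and that of all genes 0.04. Foxp2 had 4.49 and 4.04 RPKM in PRC1-CD against 1.85 and 1.54 in PRC1-WT (log2 change 0.97 ± 0.18, n = 2 each, adjusted p = 0.00849). Foxa3 had 0.92 and 1.40 RPKM in PRC1-CD against 0.26 and 0.02 in PRC1-WT (0.92 ± 0.19, adjusted p = 0.0141). Foxj2 had 1.93 and 2.93 RPKM in PRC1-CD against 1.20 and 0.75 in PRC1-WT (0.79 ± 0.22, adjusted p = 0.0387). In these 3 genes both PRC1-CD libraries lay above both PRC1-WT libraries, and Foxa3 and Foxj2 passed the filter only through PRC1-CD. Leaving out single libraries left 0 or 1 of the 3 calls: Foxp2 ranged up to an adjusted p of 0.0819, Foxj2 up to 0.196 and Foxa3 up to 0.116. Quantile normalisation, which moved the median log2 change of all genes to -0.08, kept Foxp2 as the 1 gene higher and called Foxk1 (-0.65, adjusted p = 0.0349) and Foxp1 (-0.87, adjusted p = 0.0154) lower.

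Foxc1 did not differ by the test between PRC1-CD, at 1.84 and 1.3 RPKM, and PRC1-WT, at 1.74 and 1.42 (log2 change -0.01 ± 0.19, adjusted p = 0.973). Its PRC1-WT values are above the 0.74 to 0.80 RPKM of WT oocytes in the separately normalised knockout set. Foxn3 had 16.33 and 13.32 RPKM in PRC1-CD against 22.11 and 20.08 in PRC1-WT (-0.49 ± 0.18, adjusted p = 0.0916), and Foxj3 had 63.78 and 67.03 against 94.72 and 71.45 (-0.33 ± 0.18, adjusted p = 0.241). Foxn2 had 17.59 and 19.75 RPKM in PRC1-CD against 27.28 and 21.96 in PRC1-WT, and Foxp1 0.71 and 0.73 against 1.12 and 1.33. In each of these 4 genes the groups did not overlap and the test was not passed. Foxo1, Foxo3, Foxr1 and Foxk2 had overlapping groups, with changes between -0.22 and -0.03. Foxk1 (-0.26 ± 0.17) and Foxm1 (-0.19 ± 0.18) did not overlap and did not pass. Over all 36 forkhead genes above 0 here, 15 were higher in both PRC1-CD libraries and 7 lower. Of all genes above 0 here, 34.6% and 17.9% were. The opposite signs of Foxp2 in PRC1-CD and DKO come from separate tables, and their difference was not tested.

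Markers of granulosa cells, the somatic cells around the oocyte, moved with the PRC1-CD group. Summed over 18 markers without Foxl2 they reached 68.42 to 76.39 RPKM in PRC1-CD against 34.31 to 37.79 in PRC1-WT. Of 7 tested markers 5 rose and 0 fell, where 17.3% of all genes rose and 5.61% fell. A mean of at least 1 was reached by 7 of the 18 markers in PRC1-CD and 4 in PRC1-WT. Some thus passed the filter only through PRC1-CD, which tilts this count upward. Amh was listed at 0 in PRC1-CD. The granulosa sum was 35.20 to 40.76 RPKM in TKO and 29.12 to 33.97 in DKO, against 31.43 to 35.03 in WT. Of 7 markers tested there, 3 rose and 1 fell in TKO, where 31.2% and 20.1% of all genes did. In DKO 3 rose and 1 fell, where 17.5% and 11.3% did. In both knockouts the marker that fell was Cyp19a1, whose levels are given with the FOXO targets below. Cyp19a1 made up most of the WT sum, so the knockout sums do not show how the other markers moved. Of the 18 markers 4 had a mean of at least 1 in WT, so here too some passed only through the knockouts. Sums of 11 stroma, theca and blood markers were 13.34 to 14.15 RPKM in PRC1-CD against 9.37 to 11.05 in PRC1-WT, and 11.54 to 16.13 in TKO and 6.19 to 8.39 in DKO against 9.39 to 10.72 in WT. Sums of 8 trophectoderm markers were 65.62 to 77.45 RPKM in PRC1-CD against 25.95 to 27.44 in PRC1-WT, and 50.20 to 63.99 in TKO and 31.12 to 36.37 in DKO against 18.83 to 21.41 in WT. Sums of 5 pluripotency markers were 42.34 to 56.50 RPKM in PRC1-CD against 38.44 to 44.31 in PRC1-WT, and 59.42 to 76.71 in TKO and 42.77 to 47.77 in DKO against 34.80 to 36.33 in WT. The part of these 4 marker lists in the forkhead changes was not tested. Foxl2 itself, the forkhead gene that defines granulosa cells, was at or near 0, with 0.10 and 0.03 RPKM in PRC1-CD and 0 in both PRC1-WT libraries, and at most 0.02 in the knockout set.

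**Figure D3:**
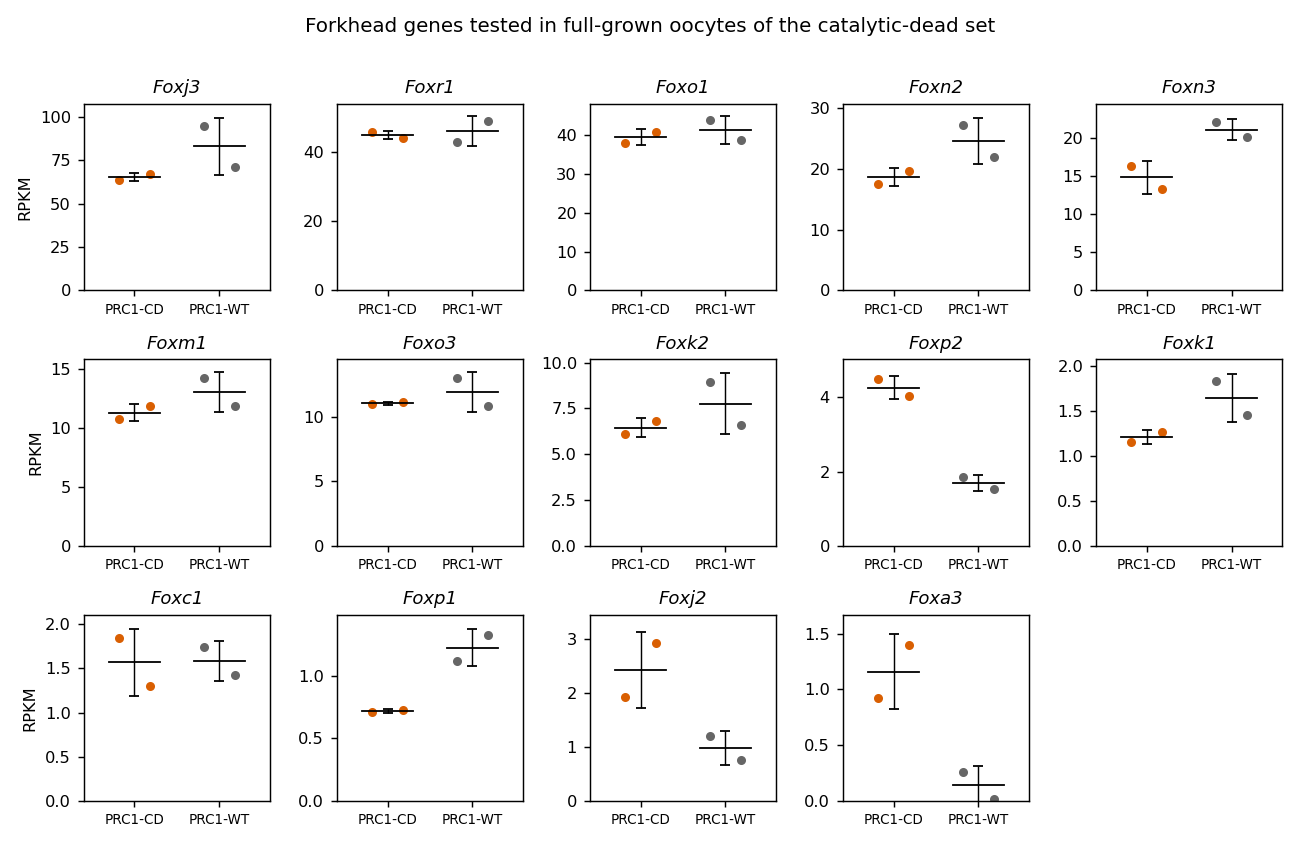
RPKM (vertical axis, from 0) of the 14 forkhead genes tested in the PRC1-CD and PRC1-WT oocyte libraries, with 1 point per library, a line at the mean and bars of 1 SD (n = 2 each, bars end at 0). Foxp2, Foxj2 and Foxa3 are higher in both PRC1-CD libraries, whereas the Foxc1 libraries overlap.

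Patterning genes near 0 in wild-type oocytes gave small signals in the mutants. Detection also differed between the groups. The PRC1-CD libraries had 12726 and 13086 genes at 1 RPKM or more, against 11734 and 11637 in PRC1-WT. Forkhead genes above 0 numbered 31 and 35 in PRC1-CD and 23 and 25 in PRC1-WT. The part of this difference in the low signals was not tested. Among the 22 members between 0 and 1 RPKM in the catalytic-dead set, 12 were higher in both PRC1-CD libraries and 1 lower, where 32.7% and 8.14% of all genes in this range were. Foxd1, a kidney stroma factor, had 0.32 and 0.45 RPKM in PRC1-CD and Foxd2 0.36 and 0.35, and both were listed at 0 in both PRC1-WT libraries. Foxd3, a neural crest and epiblast factor, had 0.27 and 0.33 RPKM in PRC1-CD, the thyroid factor Foxe1 0.46 and 0.31, and the lung mesenchyme factor Foxf1 0.16 and 0.27, all listed at 0 in PRC1-WT. The endoderm pioneer factor Foxa1 had 0.43 and 0.50 RPKM in PRC1-CD against 0.04 and 0.07 in PRC1-WT. These 6 genes passed in a fit without the filter and with a pseudocount of 0.1, chosen after the data were seen, at adjusted p 0.0216 to 0.0431, where 8.97% of all genes passed, 7.82% upward. Foxq1, with 0.64 and 0.84 RPKM in PRC1-CD against 0.43 and 0.23 in PRC1-WT, did not pass in that fit (adjusted p = 0.2).

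In the knockout set the low signals lay on partly other genes. Forkhead genes above 0 numbered 28, 30 and 30 in TKO, 28, 30 and 27 in DKO, and 26, 24 and 20 in WT. Among the 19 members between 0 and 1 RPKM in TKO and WT, 6 were higher in every TKO library and 0 lower, where 11.5% and 5.93% of such genes were. For DKO against WT it was 6 higher and 0 lower of 18, where 12.7% and 3.91% were. Between TKO and DKO 1 was higher in TKO and 2 lower of 18, where 5.86% and 8.01% were. Foxe1 had 0.09, 0.11 and 0.14 RPKM in TKO and 0.23, 0.49 and 0.19 in DKO, and was listed at 0 in all 3 WT libraries. Foxc2, a lymphatic and heart factor, had 0.33, 0.30 and 0.60 RPKM in TKO, 0.40, 0.52 and 0.34 in DKO, and 0.06, 0.04 and 0 in WT. Foxd3 had 0.12, 0.14 and 0.19 RPKM in TKO, 0.17, 0.12 and 0.04 in DKO, and 0.02, 0 and 0 in WT. All 3 passed in both knockouts in the fit without the filter (adjusted p 0.00219 to 0.0455).

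Foxd2 had 0.02, 0.02 and 0.01 RPKM in TKO, 0.17, 0.13 and 0.18 in DKO, and 0.05, 0.02 and 0.03 in WT. It was higher in DKO than WT (adjusted p = 0.0058) and lower in TKO than DKO (adjusted p = 0.00136) in that fit. Foxn4, a retina factor, had 0.13, 0.06 and 0.09 RPKM in TKO, 0.02, 0.03 and 0.01 in DKO, and 0.03, 0.02 and 0 in WT, and was higher in TKO than in WT (adjusted p = 0.0175) and DKO (adjusted p = 0.0257). Of the 20 low members in that fit, 5 rose in TKO against WT, where 25.7% of all genes passed and 16.1% rose. In DKO against WT 4 rose, where 13.7% passed and 9.21% rose. TKO against DKO had 1 higher and 1 lower, where 22.9% passed and 12.2% rose. Such values are close to the tables' smallest step of 0.01, and an exact 0 in a table without counts can be a failed estimate.

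**Figure D4:**
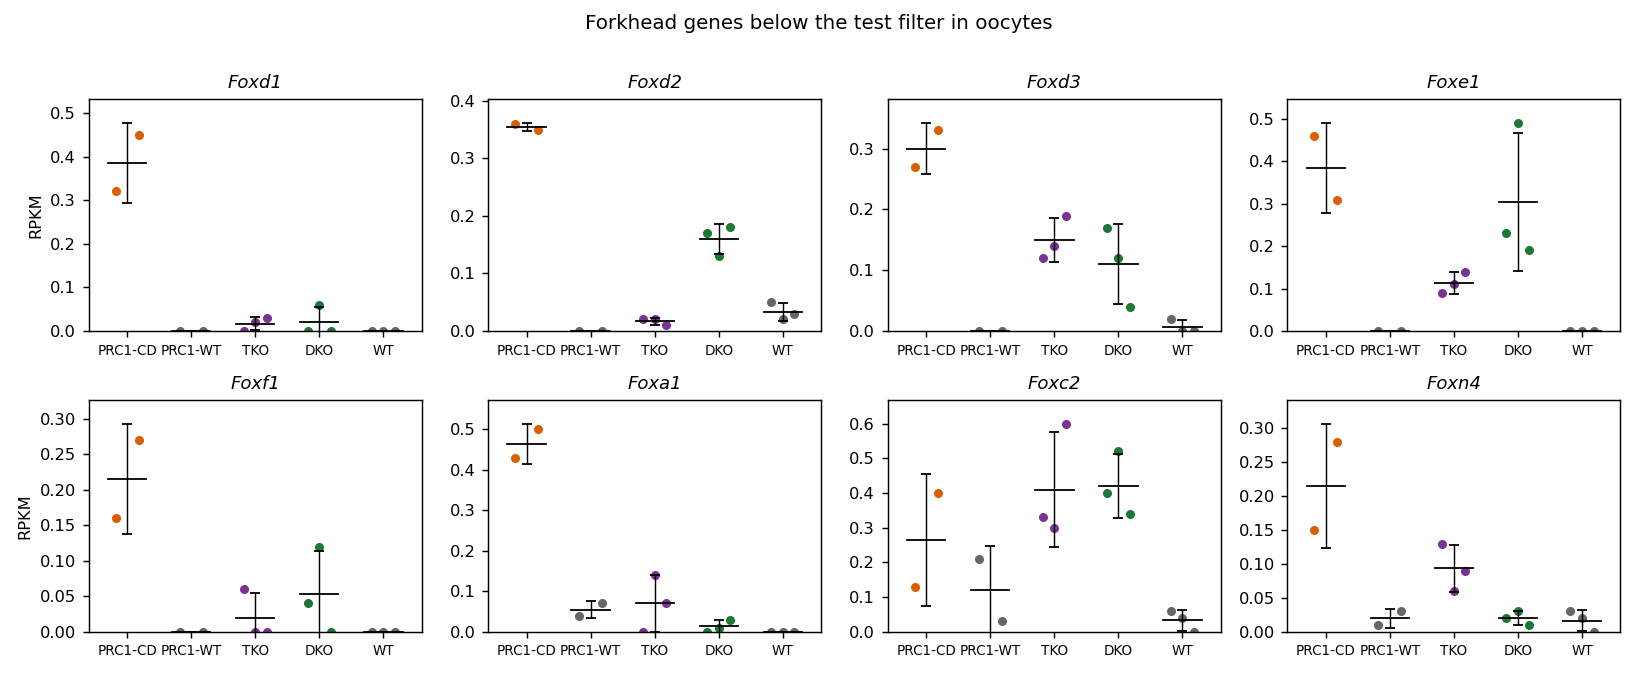
RPKM (vertical axis, from 0) of 8 forkhead genes below the test filter, in PRC1-CD, PRC1-WT, TKO, DKO and WT oocytes, with 1 point per library, a line at the mean and bars of 1 SD (n = 2 or 3, bars end at 0). Foxd1 and Foxf1 have their highest values in PRC1-CD, and Foxd2 is low in all TKO libraries. The sets were normalised separately.

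Several forkhead genes lie in clusters on GRCm38. Foxq1, Foxf2 and Foxc1 stand in this order on chromosome 13, with gaps of 64.8 and 175.2 kb. Foxq1 and Foxc1 rose in both knockouts, while Foxf2 between them was listed at 0 in all 13 oocyte libraries. Gmds, which encodes a GDP-mannose dehydratase and lies 7.1 kb from Foxc1, fell in TKO against WT (-0.45 ± 0.07, adjusted p = 0.000379). Foxf1, Foxc2 and Foxl1 form a second cluster on chromosome 8, with gaps of 28.0 and 9.0 kb. There Foxc2 had up to 0.60 RPKM in the knockouts, while Foxl1 was listed at 0 in all knockout-set libraries. Within 250 kb of the 8 forkhead genes that rose in TKO, 34 of 64 protein-coding neighbours were tested against WT, and 20 rose, Foxc1 and Foxq1 as each other's neighbours included, and 3 fell, where 31.2% and 20.1% of all genes did. Of these, 10 of the 20 lie around Foxa3, where 13 were tested, and 6 around Foxk2, where 11 were tested. Around the 4 that rose in DKO, 4 of 19 tested neighbours rose and 2 fell, where 17.5% and 11.3% of all genes did. Foxc1 and Foxq1 are again among the 4 neighbours that rose. Around the 3 that rose in PRC1-CD, 2 of 15 rose and 0 fell, where 17.3% and 5.61% of all genes did. The kit does not mark strand. Reads of Foxj2, Foxo1, Foxq1 and Foxe1 therefore cannot be told apart from those of the opposite-strand genes Gm26826, Gm20402, A530084C06Rik and Gm12446 whose exons overlap them. The same holds for Foxl2 and the opposite-strand gene Foxl2os. Foxp1 shares exons with Gm20696 on its own strand, and Foxm1 with Gm44596 and Tex52, so their values are uncertain in the same way.

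Upstream of the FOXO factors, of 30 genes of the KIT, insulin and AKT pathway that acts on FOXO proteins, 24 were tested. In TKO against WT 6 rose and 7 fell, where 51.3% of all genes passed, 31.2% upward and 20.1% downward. In DKO 0 rose and 1 fell, where 28.8% passed, 17.5% upward and 11.3% downward. In PRC1-CD 0 rose and 0 fell, where 22.9% passed, 17.3% upward and 5.61% downward. Rictor, a subunit of the mTORC2 kinase complex that phosphorylates AKT, had 8.42 ± 1.20 RPKM in TKO against 21.3 ± 0.783 in WT (log2 change -1.25 ± 0.10, adjusted p = 9.25e-06). Pdpk1, which encodes the kinase PDK1 upstream of AKT, had 12.3 ± 1.15 RPKM in TKO against 19.8 ± 0.516 in WT (-0.65 ± 0.08, adjusted p = 0.000176). Skp2, which encodes a ubiquitin ligase subunit that targets FOXO1, rose by 0.79 ± 0.12 in TKO (adjusted p = 0.000481).

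Of 30 FOXO target genes, 17 were tested in the catalytic-dead set and 19 in the knockout set. In PRC1-CD 8 rose and 0 fell, in DKO 11 rose and 1 fell, and in TKO 11 rose and 2 fell. In TKO against DKO 9 rose and 4 fell. In that order 22.9%, 28.8%, 51.3% and 48.6% of all genes passed. The upward shares were 17.3%, 17.5%, 31.2% and 26.8%, and the downward shares 5.61%, 11.3%, 20.1% and 21.8%. The list's median log2 change was 0.57 in PRC1-CD (all genes 0.04), 0.45 in DKO (0.03) and 0.40 in TKO (0.09). Targets with a control mean under 1, such as Ccnd2 in PRC1-WT, passed the filter only through the mutants. This tilts the list's counts and medians upward. Gadd45a, a stress and DNA repair gene, had 14.2 ± 2.82 RPKM in TKO and 6.44 ± 1.59 in DKO against 2.02 ± 0.146 in WT (SD, n = 3 each). In PRC1-CD it had 8.89 ± 1.57 RPKM against 2.64 ± 0.276 in PRC1-WT. Bcl2l11, which encodes the pro-apoptotic BIM, had 7.09 ± 1.34 RPKM in TKO and 5.17 ± 0.282 in DKO against 1.93 ± 0.255 in WT. Ccnd2, a D-type cyclin that FOXO factors repress, had 3.29 ± 0.686 RPKM in PRC1-CD against 0.400 ± 0.0707 in PRC1-WT. Cyp19a1, the aromatase gene, had 16.2 ± 0.807 RPKM in TKO and 15.1 ± 1.18 in DKO against 23.3 ± 1.93 in WT. Rictor is in both FOXO lists, Cyp19a1 is also a granulosa marker, and the target list mixes activated with repressed targets.

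FOXM1 target genes were measured in full, with 28 of 28 tested. In TKO against WT 8 rose and 8 fell, where 51.3% of all genes passed, 31.2% upward and 20.1% downward. In DKO 5 rose and 1 fell, where 28.8% passed, 17.5% upward and 11.3% downward. In PRC1-CD 1 rose and 0 fell, where 22.9% passed, 17.3% upward and 5.61% downward. Prc1, a spindle midzone gene unrelated to the Polycomb complex of that name, had 197 ± 4.91 RPKM in TKO against 292 ± 3.26 in WT (-0.57 ± 0.05, adjusted p = 1.38e-05). Ccna2, encoding cyclin A2, had 68.7 ± 4.32 RPKM in TKO against 39.1 ± 2.37 in WT (0.80 ± 0.07). The centromeric histone gene Cenpa was the 1 gene of the list to rise in PRC1-CD, by 0.54 ± 0.15 (adjusted p = 0.0439), and it also led the list in DKO, at 110 ± 7.56 RPKM against 69.9 ± 6.08 in WT.

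FOXH1 acts with SMAD2 and SMAD3 in NODAL signalling. Of 29 genes of that pathway, 13 were tested in oocytes. In TKO against WT 7 rose and 0 fell, where 51.3% of all genes passed, 31.2% upward. In DKO 4 rose and 0 fell, where 28.8% passed, 17.5% upward, and in PRC1-CD 4 rose and 0 fell, where 22.9% passed, 17.3% upward. Eomes, a mesendoderm factor, had 2.38 ± 0.269 RPKM in PRC1-CD against 0.10 ± 0.0424 in PRC1-WT. It passed the filter only through PRC1-CD, and genes that enter in this way tilt the counts upward. Pcsk6, which encodes a NODAL-processing protease, had 4.23 ± 0.365 RPKM in TKO and 3.65 ± 0.705 in DKO, against 1.72 ± 0.338 in WT. Foxh1 itself was at most 0.01 RPKM in all 13 oocyte libraries.

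In morulae 13 forkhead genes were tested, and 0 passed in matTKO against WT, matDKO against WT and matTKO against matDKO, where 0.567%, 1.74% and 0.0689% of all 13056 genes passed. By limma 0 of the 13 had an unadjusted p under 0.05 in any of the 3 comparisons. Of all genes, 12.9% did in matTKO against WT, 17.3% in matDKO against WT and 6.64% in matTKO against matDKO. Under every alternative run there 0 of the 13 passed, with the libraries that stood apart kept or left out. The smallest adjusted p was 0.435, for Foxk1 in matTKO against WT. The members' median log2 change was -0.04 in matTKO (all genes -0.06) and -0.16 in matDKO (all genes -0.09).

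Foxj3 had the highest mean of the forkhead genes in matTKO morulae, at 15.3 TPM, and in matDKO morulae, at 15.0 TPM, and Foxo1 in WT, at 17.0 TPM. Their ranges overlapped in each group, so this order is not resolved. For Foxo1 the lowest, median and highest values were 6.98, 13.29 and 24.22 TPM in matTKO, 5.86, 14.40 and 23.01 in matDKO, and 10.62, 16.13 and 25.60 in WT. The groups overlapped, and the log2(TPM + 1) change was -0.33 ± 0.21 in matTKO (n = 10 each, adjusted p = 0.516) and -0.27 ± 0.21 in matDKO (adjusted p = 0.515). Foxh1, near 0 in oocytes, ranged over 0.12, 1.94 and 7.86 TPM in matTKO, 0.42, 2.01 and 11.07 in matDKO, and 1.07, 4.16 and 6.08 in WT. Its changes were -0.51 ± 0.35 in matTKO and -0.34 ± 0.35 in matDKO, within the spread of the libraries. Foxk1 ranged over 0.51, 1.55 and 2.61 TPM in matTKO and 0.26, 1.69 and 2.35 in matDKO, against 1.21, 2.12 and 2.79 in WT.

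The other tested genes also overlapped between all groups. Foxj3, Foxr1, Foxn3, Foxm1, Foxn2 and Foxo3 had WT means between 6.25 and 13.3 TPM, and Foxk2, Foxj2, Foxp4 and Foxa3 between 0.695 and 2.39. Of the genes that rose in TKO oocytes, Foxc1 ranged over 0, 0.345 and 0.89 TPM in matTKO, 0.23, 0.63 and 1.39 in matDKO, and 0.02, 0.605 and 0.93 in WT. Foxj2 ranged over 0.84, 2.43 and 4.14 TPM in matTKO, 0.71, 1.80 and 3.02 in matDKO, and 0.45, 2.23 and 3.05 in WT. Foxp2 was at most 0.03 TPM in every morula library. Of the 26 low members, 0 passed in any morula comparison in the fit without the filter, where 0.051% of all genes passed in matTKO against WT, 0.262% in matDKO against WT and 0.0146% in matTKO against matDKO. The 4 pathway lists also had 0 genes called in each morula comparison. Trophectoderm markers summed to 315.39 to 2571.91 TPM in matTKO and 159.26 to 2691.34 in matDKO, against 1054.25 to 4629.43 in WT, and their part in the forkhead values was not tested.

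**Figure D5:**
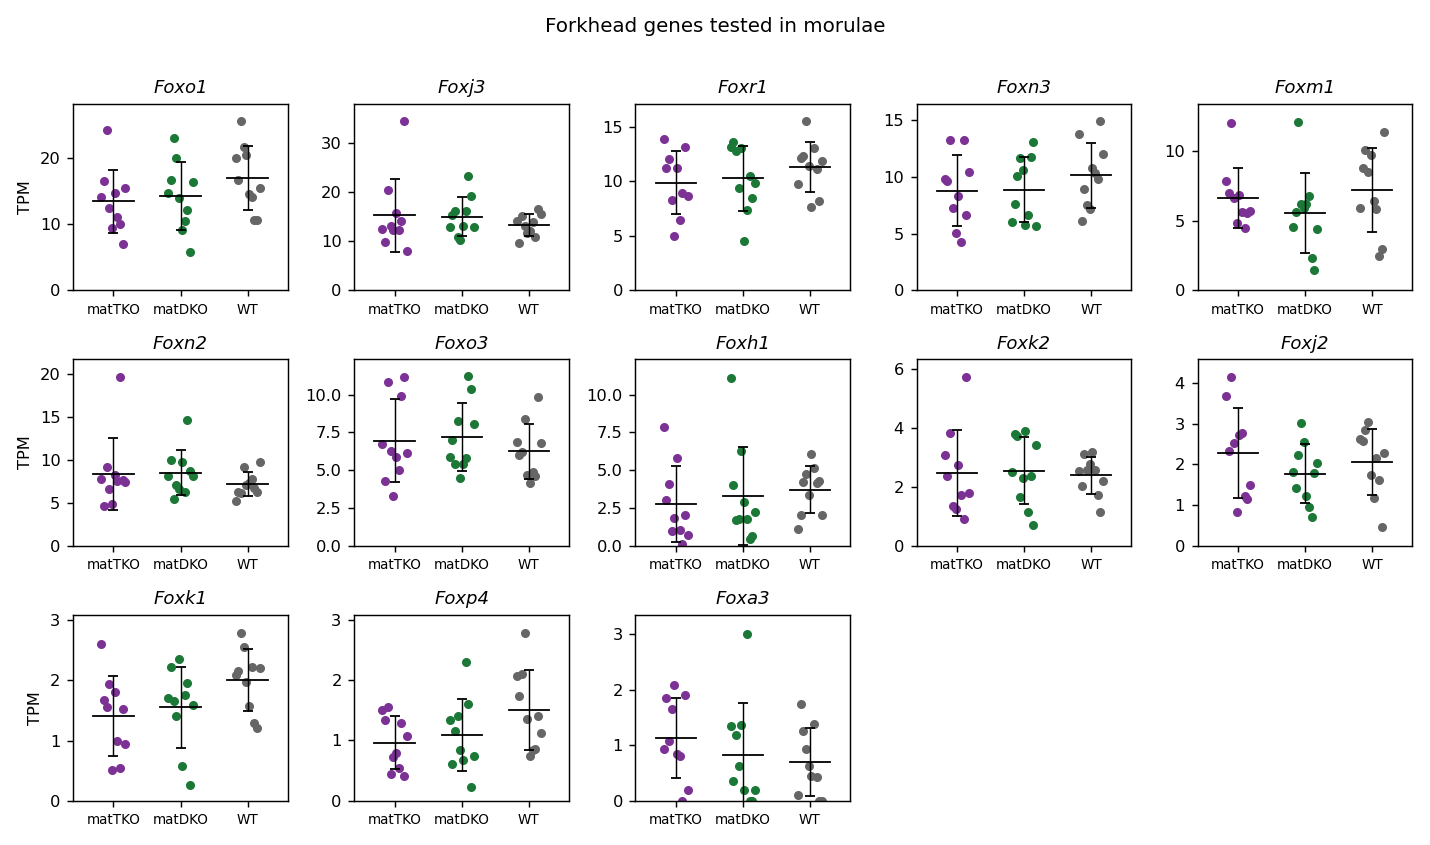
TPM (vertical axis, from 0) of the 13 forkhead genes tested in matTKO, matDKO and WT morulae, with 1 point per library, a line at the mean and bars of 1 SD (n = 10 each, bars end at 0). The 3 groups overlap in every panel.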

How the data were processed

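RNA of 43 libraries was measured, per the labels' protocols, after SMART-Seq v4 cDNA synthesis and Nextera XT library preparation, which do not mark the strand. Per the submitters' processing notes, featureCounts 1.6.0, RSEM 1.3.1, Trim Galore 0.6.4 and 2 releases of STAR (2.7.3 and 2.7.6) were used with mm10 or GRCm38, without a statement of which made each table. The authors deposited both oocyte tables as RPKM. The deposited morula table is titled RPKM, but each library sums to between 999421 and 999922, so its values were treated as TPM. Tables were normalised separately and tested separately. Depth is unknown, and no interval for counting error was computed. Symbols turned into dates (27 in the PRC1 set and 27 in the knockout set) were dropped.

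Values were analysed as log2(value + 1), which understates changes of low genes, with limma 3.58.1 in R 4.3.3 (eBayes with trend). Genes with no group mean reaching 1 were left out. Tests were two-sided and called under 0.05 after Benjamini-Hochberg adjustment across every gene a comparison tested. All groups of a table shared 1 fit, without the replicate number. The members, the gene lists (from general knowledge) and the tests were chosen with earlier results of these data known. Forkhead genes called in any comparison or with a mean of at least 1 in any group were to be named, with up to 4 called genes per list by adjusted p. Positions and overlaps are from the GENCODE annotation of GRCm38, promoters from RefSeq GRCm38.p6. Some genes that the naming rule selects are not reported here. Alternatives were quantile normalisation, median-ratio scaling, a pseudocount of 0.1, no filter, the compared groups only, the replicate block and leaving out libraries.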

Additional observations from a re-analysis of the deposited data

Results flagged for a closer look

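In 6 of 39 morula groups of values 1 library stood far above the other 9, by its gap to the nearest library over the group's range. A chance rate of about 1 in 20 such groups holds for independent groups of normally distributed values. The groups share libraries and their distribution was not checked, so 6 of 39 cannot be set against that rate. Foxn2 reached 19.70 TPM in matTKO replicate 8, next to 9.19 in the nearest library, and 14.65 in matDKO replicate 8, next to 9.99. Foxj3 reached 34.46 TPM in matTKO replicate 9, next to 20.45. Foxm1 reached 12.00 TPM in matTKO replicate 3, next to 7.80, and 12.04 in matDKO replicate 3, next to 6.79. Foxa3 reached 3.01 TPM in matDKO replicate 7, next to 1.37. The matTKO replicates 8 and 9 are also among the libraries that correlated less with their group. These 4 genes passed no morula test, with all libraries or without matDKO replicate 9 and matTKO replicates 8 and 9. The other libraries named here were not left out.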

How the results depend on the processing

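Of 25 forkhead calls 17 were kept under every alternative, 7 were lost under at least 1, 1 (Foxo6 in TKO) fell below the filter without TKO replicate 1, 13 of 76 other results gained a call, and 0 reversed. The lost calls are those of Foxp2, Foxa3 and Foxj2 in PRC1-CD, Foxa3 and Foxp2 in DKO, Foxp1 in TKO and Foxa3 in TKO against DKO. The cause was not tested. Forkhead counts moved in PRC1-CD (3) to 6 without the filter, to 7 without the filter at pseudocount 0.1 (chosen after seeing the data) and to between 0 and 1 leaving out libraries, in DKO (5) to 9 at that last pair of settings and to between 3 and 5 leaving out libraries, and in TKO against DKO (7) to between 6 and 11 leaving out libraries. Counts over all genes fell to between 1238 and 1543 in PRC1-CD (3059) and to between 2421 and 2947 in DKO (3701) leaving out libraries, where a lone library is assumed to vary like the others. In matDKO against WT (227) they were 93 without the filter, 607 with the block and 72 without the filter at pseudocount 0.1. In matTKO against WT (74) they were 137 with quantile normalisation, 21 at pseudocount 0.1, 32 without the filter, 183 with the block, 14 without the filter at pseudocount 0.1, 127 for the compared groups only and 119 without the libraries standing apart. In matTKO against matDKO (9) they were 5, 16, 4, 4 and 20 without the filter, with the block, without the filter at pseudocount 0.1, for the compared groups only and without those libraries. Scaling moved the balance of calls. Quantile normalisation gave 1608 higher and 1538 lower in PRC1-CD (2309 and 750), 1857 and 2065 in DKO (2251 and 1450), 103 and 152 in matDKO (43 and 184) and 60 and 77 in matTKO (23 and 51). Median-ratio scaling gave 2935 and 3276 in TKO against DKO (3444 and 2811) and 81 and 153 in matDKO. 

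The labels tie replicate numbers to no animal, batch or day, and not every same-numbered pair correlated above 0.1, so no pairing was assumed. Deviations correlated at 0.088 in the catalytic-dead set, -0.048 to 0.109 in the knockout set and -0.167 to 0.569 in morulae, where the mean was 0.101 for equal and -0.007 for different numbers. Best matches fell on the own number in 6 of 18 cases in the knockout set, which with 3 libraries a group is what chance gives. In morulae, with 10 a group, it was 17 of 60, above chance and a hint from the data, not the design. With the replicate block the forkhead counts stayed at 3, 5, 10 and 7 in oocytes and 0 in morulae, and all genes gave 3264, 3364, 6331 and 5976 calls in PRC1-CD, DKO, TKO and TKO against DKO. The unknown depth and 2 or 3 libraries a group limit what low genes can show.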

Other observations

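Foxd2os, the antisense gene beside Foxd2 and no forkhead gene, was looked at after the Foxd2 values had been seen. It had 0.71 and 0.76 RPKM in PRC1-CD against 0.08 and 0.03 in PRC1-WT. In the knockout set it had 0, 0.01 and 0 RPKM in TKO, 0.29, 0.46 and 0.29 in DKO, and 0.03, 0 and 0 in WT. Both groups with the higher values are those in which Foxd2 itself was highest, and the TKO libraries were at the level of WT for both genes. The annotation used here lists no gene overlapping Foxd2, and whether reads of the pair were shared was not tested. These values were not tested.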
